A study of Mus musculus with 7 samples.

Results

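The mouse forkhead genes were taken as the protein-coding genes whose symbol is Fox followed by a letter from a to s and a number. The rule gave 44 genes of 21938 protein-coding genes in the GENCODE M21 basic annotation of mm10, in 19 lettered subfamilies. For each gene, the HDAC1 peaks overlapping the gene body with 5 kb added on each side were collected, and 35 of the 44 genes had at least 1 peak and 9 had none. HDAC1 binding was measured by ChIP-seq with an HDAC1 antibody (Abcam ab7028) in Swiss Webster limb buds at E11.5 (40 to 44 somites), with forelimbs and hindlimbs of 3 litters pooled, and the experiment comprised 4 ChIP samples and 3 inputs without antibody. The labels name no mutation and no treatment in any sample. The authors combined the samples into 1 ranked list of 15347 peaks that holds a chromosome, a start and an end, so it carries no value of any sample, the depth is unknown from it, and no replicate error is given for any peak. Position 1 is the first row of the list, and the median peak length was 1250 bp in the first 2000 positions, 750 bp in the first 7673 positions and 300 bp in the other 7674. The buds hold mesenchyme, ectoderm, vessels and blood together, so a peak carried by a few cells and a weak peak in most cells cannot be told apart.

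Forkhead proteins bind DNA through a winged-helix domain whose recognition helix is nearly the same in all members. They act in tissue patterning (FoxC, FoxF), in the identity of endodermal and neural tissues (FoxA, FoxB), and in metabolism and the cell cycle in most cells (FoxO, FoxK, FoxM). HDAC1 removes acetyl groups from histone tails as the catalytic subunit of corepressor complexes such as Sin3, NuRD and CoREST, and it is found at active, CpG-rich promoters as well as at silenced genes. Many forkhead genes that pattern the embryo are compact, with the whole protein encoded in 1 exon, while most FoxJ, FoxK, FoxN, FoxO and FoxP genes are longer and have several coding exons.

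Several peaks at the compact genes lay inside coding sequence, and 1 such peak is printed whole to show that sequence, in the direction of the gene, with every CG dinucleotide in capitals. The peak at Foxe3 was 250 bp long with 40 CG. Its GC content of 79.6% was the highest of the 72 forkhead peaks, so the stretch is not typical. The 18 forkhead peaks that were at least 50% coding had a median of 68.0% in the 300 bp around their centres.
Foxe3 coding peak, chr4:114925200-114925449, minus strand: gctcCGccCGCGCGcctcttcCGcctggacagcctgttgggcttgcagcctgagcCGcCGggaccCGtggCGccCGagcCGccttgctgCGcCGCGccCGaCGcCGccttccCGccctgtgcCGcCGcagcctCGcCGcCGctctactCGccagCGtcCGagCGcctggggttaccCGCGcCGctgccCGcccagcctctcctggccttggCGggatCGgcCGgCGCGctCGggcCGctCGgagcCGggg

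The 150 bp before the gene start are printed for Foxk2 and Foxn2, which had a long peak over the start, and for Foxj2, which had no peak within 5 kb, again with CG in capitals. They show that a CG-dense start occurred on both sides: the stretch held 33 CG at Foxk2, 18 at Foxn2 and 26 at Foxj2.
Foxk2 upstream, chr11:121259840-121259989, plus strand: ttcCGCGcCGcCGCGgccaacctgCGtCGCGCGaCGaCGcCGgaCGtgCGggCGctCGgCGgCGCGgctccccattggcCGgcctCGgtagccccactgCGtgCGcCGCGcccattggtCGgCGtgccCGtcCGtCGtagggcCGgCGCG
Foxn2 upstream, chr17:88440561-88440710, plus strand: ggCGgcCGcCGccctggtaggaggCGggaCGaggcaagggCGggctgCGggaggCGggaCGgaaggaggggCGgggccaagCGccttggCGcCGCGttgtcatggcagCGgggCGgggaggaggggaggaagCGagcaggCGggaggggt
Foxj2 upstream, chr6:122819764-122819913, plus strand: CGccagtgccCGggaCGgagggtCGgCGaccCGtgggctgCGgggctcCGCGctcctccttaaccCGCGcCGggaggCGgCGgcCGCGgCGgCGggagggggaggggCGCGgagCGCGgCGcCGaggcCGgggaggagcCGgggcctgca

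Across the family, 35 of 44 genes (79.5%, 95% Wilson interval 65.5 to 88.8) had a peak in the gene body with 5 kb on each side, beside 50.5% of all protein-coding genes. These intervals are over genes, which are not replicates, and cover counting error only. A promoter window of 2 kb before to 1 kb after a coding transcript start held a peak in 29 genes (65.9%), beside 43.9% of all coding genes. A peak lay directly over a coding transcript start in 16 genes (36.4%, interval 23.8 to 51.1), beside 32.7% of all coding genes, so the family stood close to the background by this measure. A peak among the first 7673 positions was found at 23 genes (52.3%), beside 35% of all coding genes, and a peak among the first 2000 positions at 14 genes (31.8%), beside 10.8%. Over genes with a peak, however, the highest-placed peak had a median position of 5198 in the family and 4957.5 in all coding genes. The 35 genes had 72 distinct peaks, 0.469% of the list, and no peak was in the window of 2 forkhead genes. Of the 72 peaks at these 35 genes, 36 stood after the first 7673 positions. Of these genes, 14 had 1 peak, 12 had 2 and 9 had 3 or more. Peak lengths ran from 150 to 6150 bp with a median of 450 bp, the same as the median of all peaks.

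Compactness and base composition differ between the family and other genes, and the share of genes with a peak is given here by each of them. Of the 25 forkhead genes no longer than 6520 bp, the lowest length quartile of all coding genes, 21 (84.0%, interval 65.3 to 93.6) had a peak, beside 32.7% of all coding genes of that length. In the next quartile the count was 2 of 4 (50%), beside 45.2%, and in the third 2 of 5 (40%), beside 55.4%, with a promoter peak in 0 of these 5. The 10 forkhead genes in the longest quartile all had a peak, beside 68.5%. The family's share was thus above that of all coding genes in the shortest and longest quartiles and near or below it in the middle ones, which hold few members. A CpG-rich start, meaning a GC content of at least 55% and an observed to expected CpG ratio of at least 0.6 in the 500 bp on either side of the gene start, was present in 30 of 44 forkhead genes (68.2%) and 38.3% of all coding genes. Among genes with such a start, 27 of 30 forkhead genes (90.0%) and 86.0% of all coding genes had a peak. Without it, the counts were 8 of 14 forkhead genes (57.1%) and 28.4% of all coding genes. The part of gene length or CpG content in the family's share was not tested.

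**Figure D1:**
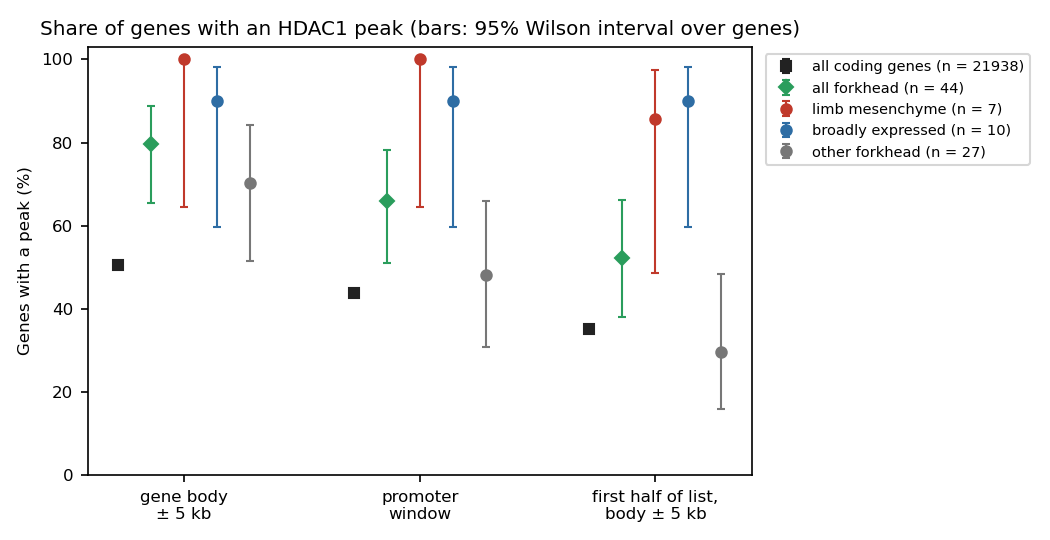
Share of genes with an HDAC1 peak (y axis, percent of genes, with 95% Wilson intervals) under 3 rules (x axis) for all coding genes, all 44 forkhead genes and 3 groups of them. The other forkhead genes drop from 70.4% to 29.6% between the leftmost and the rightmost rule, while the broadly expressed genes stay at 90.0%.

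The comparison asked how HDAC1 was distributed over forkhead genes on a limb-expressed list and those left off it. The list holds no expression value, so the grouping came from general knowledge and could not be checked against markers here. The 17 limb-expressed genes were of 2 kinds, 7 and 10 in number: Foxc1, Foxc2, Foxd1, Foxf2, Foxp1, Foxp2 and Foxp4, known from limb mesenchyme, and Foxj2, Foxj3, Foxk1, Foxk2, Foxm1, Foxn2, Foxn3, Foxo1, Foxo3 and Foxo4, expressed in most embryonic cells. The other 27 genes were all remaining members, most of them best known from other tissues, and some may be used in the limb bud. A wider limb list would add Foxd2, Foxf1, Foxi3, Foxq1 and Foxs1. By the wider list, 21 of 22 limb-expressed genes and 14 of 22 others had a peak. The promoter window held a peak in 19 of 22 and 10 of 22. A peak in the first 2000 positions was present at 13 of 22 and 1 of 22.

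A peak was present at 16 of the 17 limb-expressed genes (94.1%, interval 73.0 to 99.0) and at 19 of the 27 others (70.4%, interval 51.5 to 84.1). The share over all coding genes was 50.5%. The counts lay further apart for the place of the peaks and their position in the list. A peak over a coding transcript start was found at 13 of 17 limb-expressed genes (76.5%, interval 52.7 to 90.4) and at 3 of 27 others (11.1%, interval 3.85 to 28.1), Foxf1, Foxi3 and Foxj1. The share over all coding genes was 32.7%. Any coding start of a gene could count here and in the promoter window. Starts numbered 6 at Foxp1, 5 at Foxp2, 4 at Foxj3, Foxo3 and Foxp4 and 3 at Foxn3, and 6 at Foxp3 of the others. No other gene had more than 2. Foxn3 and Foxj3 counted through an internal start alone. The part of the number of starts was not tested. The promoter window held a peak in 16 of 17 (94.1%) and in 13 of 27 (48.1%), beside 43.9% of all coding genes. A peak of 1000 bp or more was present at 13 of 17 and at 2 of 27 (Foxf1 and Foxq1), beside 14.5% of all coding genes. A peak in the first 2000 positions was present at 12 of 17 and at 2 of 27 (Foxf1 and Foxo6), beside 10.8% of all coding genes. None of these differences was tested, because genes are not replicates and the groups were chosen with earlier results known.

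The best position of a gene, that of its highest-placed peak, had a median of 985.5 over the 16 limb-expressed genes with a peak, from 171 at Foxp1 to 10881 at Foxd1. It had a median of 8332 over the 19 other genes, from 1141 at Foxf1 to 14769 at Foxs1. Over all coding genes with a peak the median was 4957.5, between the groups. The ranges overlapped: Foxf1 and Foxo6 of the others stood above Foxj3, Foxc2, Foxo1, Foxp2, Foxf2, Foxo4 and Foxd1 of the limb-expressed genes. The median longest peak of a gene was 1350 bp in the limb-expressed genes, 400 bp in the others and 700 bp over all coding genes.

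**Figure D2:**
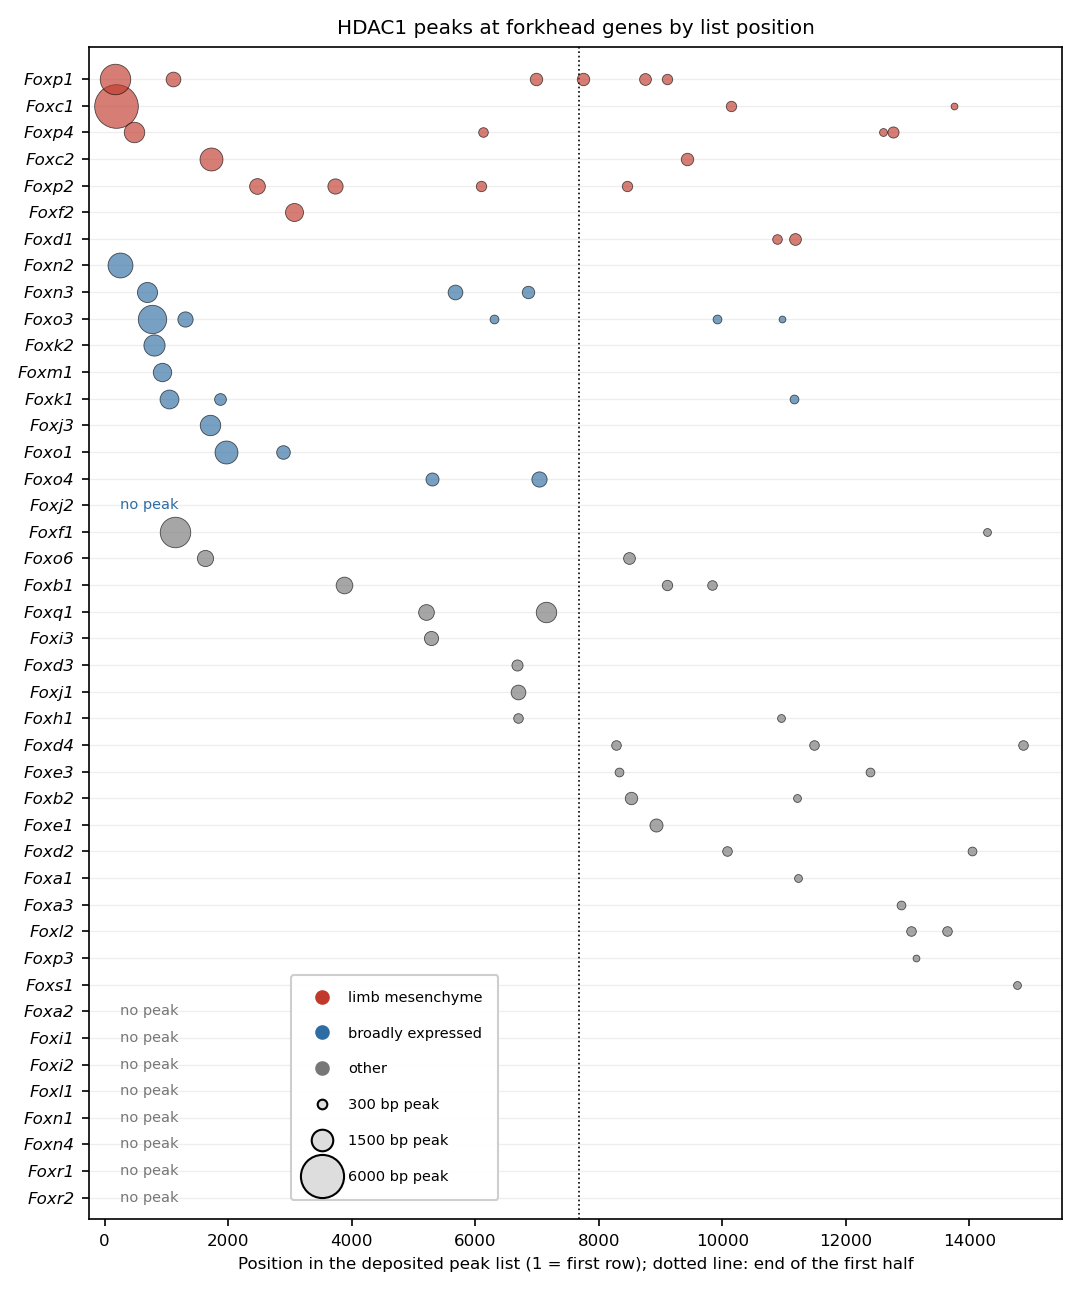
HDAC1 peaks at the forkhead genes named in the text by their position in the deposited list (x axis, 1 = first row), 1 row per gene, with circle area proportional to peak length and colour for the gene group. Limb mesenchyme and broadly expressed genes each have their largest circles at the left, the peaks of the other genes are spread to position 14867, and 9 genes have no peak.

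Gene length and CpG content also differed between the groups. Median gene length was 49907 bp in the limb-expressed genes and 3759 bp in the others. All 10 forkhead genes in the longest quartile were limb-expressed, so the groups cannot be compared at that length. Of these 10, 9 had a peak in the first 2000 positions, beside 15.9% of all coding genes of that length. The part of gene length was not tested. A CpG-rich start was present in 16 of 17 and 14 of 27. Foxj3 alone of the limb-expressed genes lacked one at the gene start, and its peak was centred 2720 bp downstream. Among genes with a CpG-rich start, a peak was present at 15 of 16 limb-expressed genes and 12 of 14 others, which is 93.8% (interval 71.7 to 98.9) and 85.7% (interval 60.1 to 96.0). Both shares lay near the 86.0% of all coding genes with a CpG-rich start. Within the same genes, a peak in the first 2000 positions was present at 11 of 16 (68.8%) and 2 of 14 (14.3%), beside 21.1% of all coding genes with a CpG-rich start. The intervals of the shares with any peak overlapped, and no test was run on either count.

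Among the limb mesenchyme genes, Foxc1, which acts in skeletal, vascular and eye mesenchyme, had the longest peak of the family. Its 6150 bp peak (chr13:31806400-31812549, position 191) covered the whole gene including all 1659 coding bases, and only 21 peaks of the list were longer. Further peaks of 350 bp (chr13:31803850-31804199, position 10135) and 150 bp (chr13:31804750-31804899, position 13759) lay upstream. Its paralog Foxc2, which acts with Foxc1 in somite and vessel development, had a 1700 bp peak (chr8:121116200-121117899, position 1725) over 86.7% of the coding bases and a 500 bp peak before the start (chr8:121115100-121115599, position 9428). Foxf2, a mesenchymal gene of palate and gut, had 1 peak of 1050 bp over its start (chr13:31625550-31626599, position 3062). Foxd1, known from kidney stroma and the retina, was the exception in the group: its peaks were 450 bp and 300 bp long, stood at positions 11174 and 10881, and both lay within the transcribed exon and missed the start.

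The 3 FoxP genes of the group, transcriptional repressors of lung, brain and muscle development, are long (57513 bp at Foxp4, 540629 bp at Foxp2 and 597384 bp at Foxp1) and carried their leading peak at an annotated start. Foxp1 had 6 peaks, the most of any forkhead gene. The 3000 bp peak at its 5′ end (chr6:99520650-99523649) stood at position 171, and an internal start had peaks of 700 bp (chr6:99028350-99029049, position 1106) and 500 bp (chr6:99027750-99028249, position 7739). The other 3 Foxp1 peaks were intronic, at chr6:99100200-99100699 (500 bp, position 6981), chr6:99485150-99485599 (450 bp, position 8741) and chr6:99094600-99094949 (350 bp, position 9099). Foxp4 had a 1350 bp peak at the start (chr17:47923650-47924999, position 470) and intronic peaks at chr17:47909600-47909899 (300 bp, position 6123), chr17:47887500-47887699 (200 bp, position 12602) and chr17:47922200-47922599 (400 bp, position 12757). Foxp2, the gene linked to speech, had an 800 bp peak over the start (chr6:14901250-14902049, position 2461). It had 3 more peaks before it, at chr6:14900350-14901099 (750 bp, position 3726), chr6:14898200-14898549 (350 bp, position 6090) and chr6:14899800-14900149 (350 bp, position 8450). No intronic peak was listed in the body of Foxp2, although it is nearly as long as Foxp1.

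In the broadly expressed genes, 8 of 10 had a peak of 1100 bp or more in the promoter window, and the same 8 had their best position in the first 2000. Foxn2 and Foxn3 carry the same subfamily letter as the thymus gene Foxn1. Foxn2 had a single 2000 bp peak over its start (position 252), and Foxn3 had a 1300 bp peak at an internal start (chr12:99392100-99393399, position 685). Foxn3 also had 700 bp (chr12:99563250-99563949, position 5667) and 500 bp (chr12:99560850-99561349, position 6858) peaks at the 5′ end of the gene, where the annotation used has no coding transcript start. FoxK factors repress autophagy genes: Foxk2 had 1 peak of 1450 bp (position 793), and Foxk1 had a 1150 bp peak over its start (chr5:142401000-142402149, position 1042). Foxk1 also had a 250 bp intronic peak (chr5:142447950-142448199, position 11169) and a 450 bp peak past its 3′ end (chr5:142463800-142464249, position 1867), which lies in the promoter window of Ap5z1.

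Foxm1, which drives genes of mitosis, had an 1100 bp peak (position 929) that also lies in the promoter window of its divergent neighbour Rhno1. Foxj3 had a 1350 bp peak (position 1699) that is also in the window of Frg2f1. The FoxO genes, targets of insulin and Akt signalling, all had peaks. Foxo3 had 5, of which the longest was 2600 bp over the start (chr10:42275150-42277749, position 773). The next stood upstream of it (chr10:42277950-42278699, 750 bp, position 1293), 2 were intronic (chr10:42246550-42246799, 250 bp, position 6310, and chr10:42245000-42245249, 250 bp, position 9918) and 1 of 150 bp was in coding sequence (chr10:42274850-42274999, position 10967). Foxo1 had peaks on both sides of its start, of 1700 bp (chr3:52268450-52270149, position 1965) and 600 bp (chr3:52267650-52268249, position 2890). Foxo4, on the X chromosome, had the lowest best position of the group, with a 550 bp peak over its start at position 5293 and a 750 bp peak at its 3′ end at position 7037. The only broadly expressed gene without a peak was Foxj2, whose nearest peak was 8265 bp away.

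In the 19 other genes with a peak, the peaks were short, with a median of 300 bp over 31 peaks, against 475 bp over 22 peaks of limb mesenchyme genes and 750 bp over 19 peaks of broadly expressed genes. Foxf1, a mesenchymal gene of lung and gut vessels that a wider limb list would include, was unlike the rest, with a 3000 bp peak (chr8:121082000-121084999, position 1141) from before its start into the coding exon and a 200 bp peak past its 3′ end (chr8:121089200-121089399, position 14281). Foxq1, a gene of hair shaft and epithelia, had its promoter window empty and peaks of 800 bp (chr13:31557850-31558649, position 5198) and 1350 bp (chr13:31558800-31560149, position 7147), the second over all 1200 coding bases. Both Foxq1 peaks are also in the promoter window of A530084C06Rik, which runs in the opposite direction across the same locus. Foxi3, a gene of the otic placode and hair follicle, had 1 peak of 650 bp over its start (position 5281), and Foxj1, which switches on motile cilia genes, had 1 of 700 bp centred on its start (position 6689).

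Several genes known from neural tissue or the neural crest had peaks in coding or nearby sequence. Foxn4 of the retina and spinal cord and Foxa2 of the endoderm and floor plate had no peak. Foxb1, a gene of the mammillary body, had 3, of 900 bp (chr9:69760000-69760899, position 3881), 350 bp (chr9:69762350-69762699, position 9105) and 300 bp (chr9:69759650-69759949, position 9831). Foxb2 had peaks of 500 bp and 200 bp (positions 8522 and 11212). Foxd3, which maintains neural crest progenitors, had an empty promoter window and 1 peak of 400 bp in the exon (chr4:99657750-99658149, position 6678). Foxd4 had 3 peaks of 300 bp within its exon, at positions 8273, 11478 and 14867. Foxo6, the FoxO gene of the brain, stood apart, with its promoter window empty and peaks of 850 bp (chr4:120268400-120269249, position 1631) and 450 bp (chr4:120267800-120268249, position 8493) in coding sequence whose centres are 18524 and 19324 bp from the start.

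The remaining genes of the group had peaks of 150 to 550 bp. Foxe1 of the thyroid had 1 of 550 bp (position 8922), Foxe3 of the lens had 2 of 250 bp (positions 8332, printed above, and 12385), and Foxl2 of the ovary had 2 of 300 bp (positions 13060 and 13638). Foxd2 had its promoter window empty and peaks at chr4:114907350-114907649 (300 bp, position 10077) and chr4:114907050-114907299 (250 bp, position 14047). Transcripts antisense to or divergent from Foxd2 and Foxl2 start beside their peaks (Foxd2os and Foxl2os), and a peak cannot be assigned to 1 strand. This limit is not confined to them. Genes that are not protein-coding also start near peaks at other members, among them Foxb1, Foxd3, Foxe1, Foxf1, Foxf2, Foxn3, Foxo1, Foxp1, Foxp3 and Foxp4. Foxh1, a SMAD partner in nodal signalling, had peaks at positions 6697 and 10951 that are both in the window of Ppp1r16a. The liver and gut pioneer factors were poorly covered: Foxa1 had 1 peak of 200 bp past its 3′ end (chr12:57536850-57537049, position 11218), and Foxa3 had 1 of 250 bp (position 12892) that is also in the window of Sympk. Foxs1 had 1 peak of 200 bp (position 14769). Foxp3, which defines regulatory T cells, had an empty promoter window and 1 peak of 150 bp (chrX:7573750-7573899, position 13130), also in the window of Ppp1r3f. In all, 10 of the 72 peaks, at 8 genes, touched the promoter window of another coding gene.

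The 9 genes without a peak were Foxa2, Foxi1, Foxi2, Foxj2, Foxl1, Foxn1, Foxn4, Foxr1 and Foxr2. For 4 of them the nearest peak lay closer than 20 kb, at 8265 bp from Foxj2, 10041 bp from Foxl1, 12528 bp from Foxn1 of the thymus epithelium and 15474 bp from Foxr1. The other 5 were more than 80 kb from any peak: Foxr2 at 80737 bp, Foxn4 of the retina and spinal cord at 106293 bp, Foxi2 at 158828 bp, Foxa2 of the endoderm and floor plate at 348331 bp, and Foxi1 of the inner ear at 379939 bp. Only Foxj2, Foxl1 and Foxn4 of the 9 had a CpG-rich start, against 27 of the 35 genes with a peak. A missing peak says that no binding passed the authors' threshold in the pooled list, not that HDAC1 was absent.

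Forkhead peaks lay in coding sequence more often than the peaks of the list as a whole. At least 50% of the peak was coding sequence in 18 of 72 forkhead peaks (25%), beside 8.52% of all 15347 peaks. The genes holding these 18 peaks were all no longer than 6520 bp except Foxo3 and Foxo6. By group, the count was 14 of 31 peaks at the other genes, 3 of 22 at limb mesenchyme genes and 1 of 19 at broadly expressed genes. The 8.52% is over peaks at genes of every structure and between genes. In a compact gene that is mostly coding, such as Foxe3 with 864 coding bases in 867 bp, nearly any peak inside the gene passes this rule. The part of gene structure in these shares was not tested. The codons of the forkhead recognition helix were found in the coding sequence of 43 genes, all but Foxr1. A peak covered these codons in 10 genes: Foxb1, Foxb2, Foxc1, Foxc2, Foxd4, Foxe1, Foxf1, Foxf2, Foxi3 and Foxq1. It covered them in 0 of the 10 broadly expressed genes, in which an intron splits the helix codons in all but Foxn2 and Foxn3. Split codons could be covered only by a peak that also spanned the intron, over 1078 bp at Foxk1 to 76941 bp at Foxo3 in these genes. The 0 was thus largely set by gene structure and says little about where peaks lie. The same limit holds for other genes with split codons, such as Foxp1, Foxp2 and Foxp4. Of the 10 genes with covered helix codons, Foxq1 alone had an empty promoter window.

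**Figure D3:**
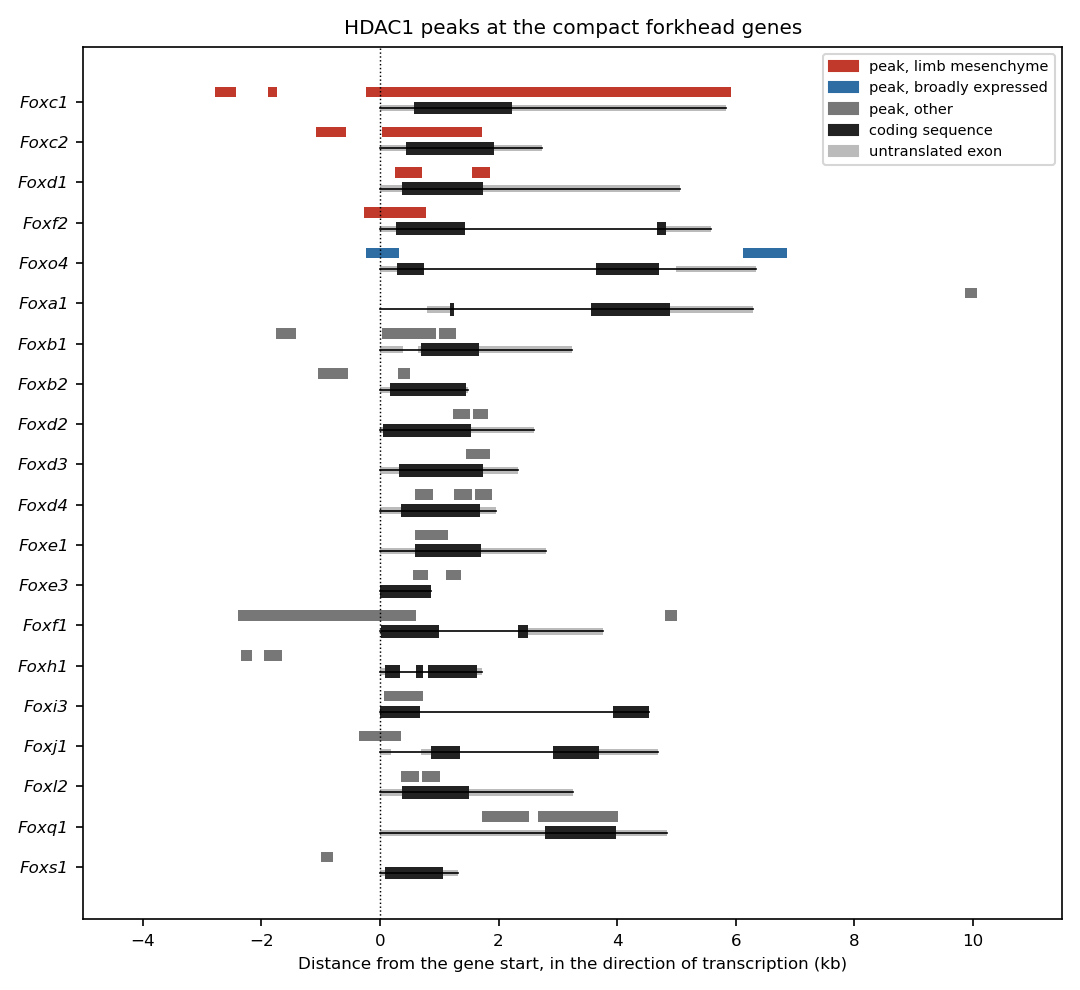
Peaks (coloured bars) and gene models (coding sequence black, untranslated exon light grey, line for the gene body) of the forkhead genes no longer than 6520 bp that have a peak and are named in the text, by distance from the gene start in kb. The Foxc1 peak spans the gene, and the Foxf1 and Foxf2 peaks cross the start. The peaks of Foxd4, Foxe1 and Foxl2 lie downstream of the start, in whole or in part over coding sequence.

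Forkhead genes of different subfamilies lie side by side in clusters, and HDAC1 was unevenly spread within them. In the Foxf1-Foxc2-Foxl1 cluster (56.3 kb with its flanks), 4 peaks covered 9.60% of the bases, with 2 at Foxf1, 2 at Foxc2 and 0 at Foxl1, a gene of gut mesenchyme. In the Foxq1-Foxf2-Foxc1 cluster (266 kb), 8 peaks covered 3.83%, of which the longest Foxc1 peak alone made up 6150 of 10200 bp. Only 2 of the 8 lay between the gene windows, of 150 bp (chr13:31577200-31577349, position 14273) and 200 bp (chr13:31713650-31713849, position 14009). The FoxF gene stood above the FoxC gene in list position in the first cluster (1141 and 1725) and below it in the second (3062 and 191). The Foxd2-Foxe3 pair (29.7 kb) had 4 peaks of 250 to 300 bp over 3.53% of the bases, at positions 8332 to 14047.

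**Figure D4:**
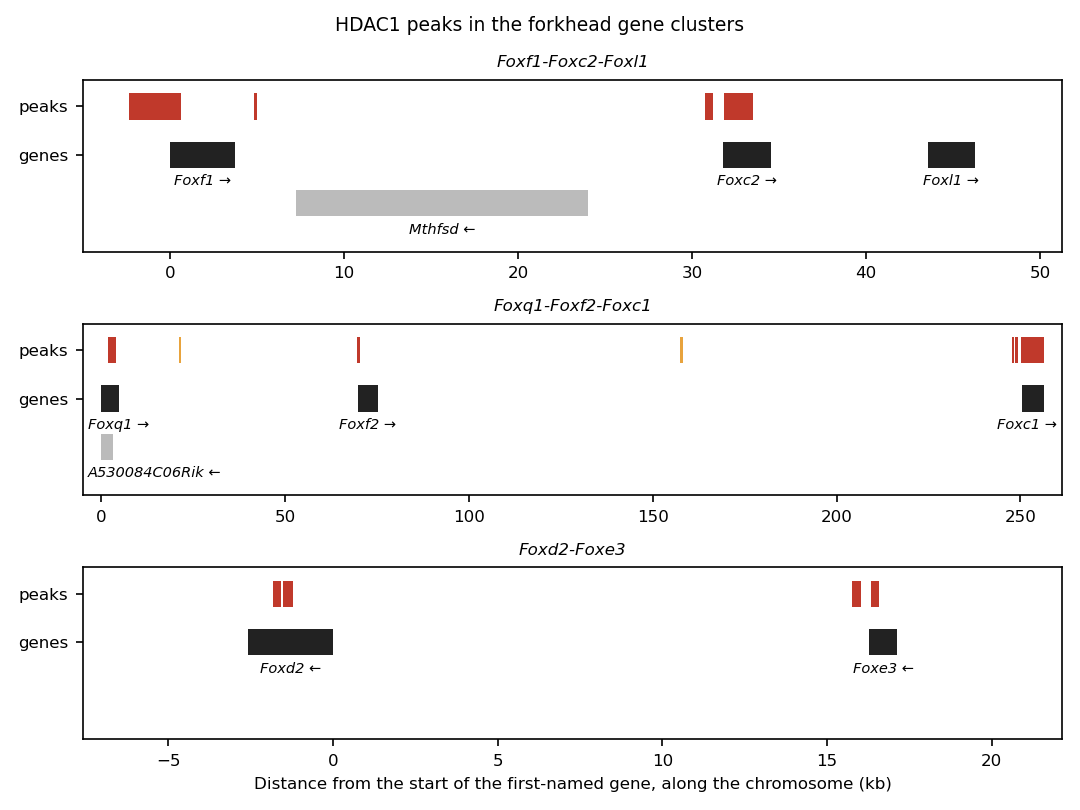
Peaks (upper row, red within 5 kb of a forkhead gene, orange elsewhere), forkhead genes (black) and other coding genes (grey) in 3 clusters, by distance in kb from the start of the gene named first; arrows give the direction of transcription and Gm20388, which spans the first cluster, is not drawn. Foxl1 has no peak above it, and the broadest peak in the second cluster covers Foxc1.

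Of 5 short motifs searched on both strands in the 300 bp centred on each peak, none was common at forkhead genes. The forkhead motif TGTTTAC, or its reverse complement GTAAACA, was in 3 of 72 windows (4.17%), beside 2.48% of the windows of all peaks. The GLI motif TGGGTGGTC, reverse complement GACCACCCA, was in 1 window (1.39%), beside 0.326%. The ETS motif CCGGAAG, reverse complement CTTCCGG, was in 7 (9.72%), beside 8.95%. The SP motif GGGGCGGGG, reverse complement CCCCGCCCC, was in 6 (8.33%), beside 10.1%. The E-box CAGGTG, reverse complement CACCTG, was in 10 (13.9%), beside 22.3%. No motif contains another. Median GC content was 64.7% in the forkhead windows and 64.3% in all. The 4 windows with a forkhead or GLI match were all at limb-expressed genes, which held 41 of the 72 windows. With shares of 2.48% and 0.326% over all peaks, 0 matches in the 31 windows of the other genes does not set the groups apart. For each match, 200 bp around it are printed below with the match in capitals, in the direction of the gene. A match is a string of letters and not a measured site.
Foxo1 forkhead match, chr3:52267968-52268167, plus strand: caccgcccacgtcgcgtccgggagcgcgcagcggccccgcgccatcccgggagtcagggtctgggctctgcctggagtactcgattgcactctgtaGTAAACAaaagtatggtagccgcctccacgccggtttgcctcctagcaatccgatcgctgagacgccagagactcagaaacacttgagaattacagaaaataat
Foxo3 forkhead match, chr10:42278181-42278380, minus strand: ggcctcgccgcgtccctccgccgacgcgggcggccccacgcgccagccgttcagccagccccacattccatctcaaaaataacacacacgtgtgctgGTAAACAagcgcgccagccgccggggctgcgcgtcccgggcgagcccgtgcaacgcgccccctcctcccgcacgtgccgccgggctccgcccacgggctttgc
Foxp4 forkhead match, chr17:47887500-47887699, minus strand: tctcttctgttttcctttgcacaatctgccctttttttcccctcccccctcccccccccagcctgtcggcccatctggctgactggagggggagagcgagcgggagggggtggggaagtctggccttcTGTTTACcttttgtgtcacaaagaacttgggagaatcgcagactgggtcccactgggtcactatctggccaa
Foxp2 GLI match, chr6:14898253-14898452, plus strand: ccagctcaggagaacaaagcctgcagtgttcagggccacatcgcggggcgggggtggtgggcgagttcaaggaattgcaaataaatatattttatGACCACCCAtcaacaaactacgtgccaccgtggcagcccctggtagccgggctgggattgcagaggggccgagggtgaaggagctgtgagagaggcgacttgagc

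In other families of developmental transcription factors, 11 of 19 Sox genes (57.9%, interval 36.3 to 76.9), 14 of 16 T-box genes (87.5%, interval 64.0 to 96.5) and 5 of 9 Pax genes (55.6%, interval 26.7 to 81.1) had a peak in the same window. The forkhead share of 79.5% lay within this range, and its interval overlapped each of theirs. Median best position was 791 in Sox genes, 2160 in T-box genes, 7096 in Pax genes and 5198 in forkhead genes.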

How the data were processed

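HDAC1 ChIP-seq was performed by the authors on pooled limb buds, with 4 ChIP samples and 3 inputs. Per the submitters' processing notes, reads were aligned with Bowtie2 2.2.5 to mm10. The authors called peaks with CisGenome 2.1.0 at a false discovery rate below 0.05. The list they deposited, as used here, has coordinates alone, and the signal and false discovery rate that the study gives for each peak elsewhere were not used. Sites below the threshold are not seen, and depth was not allowed for. Its row order was taken as the rank, and peak lengths are multiples of 50 bp.

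Coordinates were read as 1-based with both ends included. Genes were those of GENCODE M21 basic on GRCm38, and a gene had a peak when at least 1 bp overlapped its window. Python 3.11.15, scipy 1.17.1, pysam 0.24.0 and matplotlib 3.10.9 were used. Overlap calls were tested on simulated data and matched a base count in 2000 of 2000 regions.

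All genes but 1, which counts in the totals and is not reported here by name, were named. Coordinates were given for every peak of the 10 genes with most bases in peaks, of genes with 3 or more peaks, of the 2 clusters fixed for this and of genes with a peak but an empty promoter window, except for Foxd4. Non-members were named where a peak touched their promoter window. The members, the limb lists and the motifs were chosen with earlier results of these data known, so no test was run.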

Additional observations from a re-analysis of the deposited data

How the results depend on the processing

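No paired analysis was possible because peak coordinates carry no sample values. For the same reason no result could be recomputed without 1 replicate. With peaks of the first 7673 positions only, 52.3% of the forkhead genes, 29.6% of the other forkhead genes and 35.0% of all coding genes had a peak, and 36 distinct peaks were left. Without peaks at the promoter of another coding gene the shares were 63.6% (forkhead) and 38.1% (all coding). In the promoter window alone they were 48.1% (other forkhead) and 43.9% (all coding). With 10 kb on each side, 100% of limb-expressed and 53.8% of all coding genes had a peak, and without flanks 45.1% of all coding genes did. The limb mesenchyme genes alone gave 100%. Median peak length was 700 bp after merging peaks no more than 1000 bp apart, 700 bp in promoter peaks and 800 bp as the median over genes of the longest peak. In each setting for shares the limb-expressed share stayed above that of the other genes, and the forkhead share above that of all coding genes. The other 21 of 36 alternatives stayed within the interval of the main share, or within 1.5 times of a count or length. Starts of all annotated transcripts gave a peak at a start in 30 forkhead genes in place of 29, adding Foxp3, and were chosen after seeing the data.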
